A study of Mus musculus with 16 samples.

Results

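The genes described here build and control the MHC class II pathway, by which macrophages show peptides of engulfed proteins to CD4+ T cells. They are H2-Ab1 and H2-Aa, which encode the beta and alpha chains of the I-A molecule, H2-Eb1, which encodes the beta chain of I-E, Cd74, the invariant chain, and Ciita, the class II transactivator. They were followed through 3 stretches of the mouse build GRCm39, called windows below. The first spans chr17:34470000-34545000 and holds H2-Ab1, H2-Aa and H2-Eb1. The second spans chr18:60925000-60955000 and holds Cd74, and the third spans chr16:10285000-10355000 and holds Ciita. A peak was taken as a member where it overlapped a window. This gave 104 of the 320508 peaks in 16 peak lists, 71 of them at 4 days post injury (dpi) and 33 at 2 dpi. Merged within each mark, they formed 36 regions.

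The peaks come from CUT&Tag, where antibodies against a histone post-translational modification (hPTM) bring a transposase to the marked DNA, which it cuts and tags for sequencing. The cells were macrophages sorted as CD45+CD11b+F4/80+CD64+ from the calf muscle of C57BL6J wild type males aged 8 to 12 weeks after hind limb ischemia, produced by ligating the femoral artery. All mice were operated, so there is no uninjured group. By the labels the groups of a mark differ in time alone, 4 dpi against 2 dpi. Whether the preparation of libraries also differed between days is not known. Each of 4 hPTMs was profiled in 2 libraries at each time point. H3K18la is lactylation of lysine 18 of histone H3, H3K4me3 marks active promoters, H3K27ac marks active promoters and enhancers, and H3K27me3 marks repressed chromatin. Nothing in the labels says how many mice a library holds, so p-values measure only the spread between these libraries. In sorted cells, a larger share of cells that carry a mark and more of the mark in each cell cannot be told apart. The cell type is that of the labels, since marker genes could not be placed on this build.

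In MHC class II presentation, Cd74 binds newly made class II dimers and steers them to endosomes, where it is cut away and peptide is loaded. CIITA does not bind DNA. It joins the RFX complex on the X box and NF-Y on the Y box of class II promoters, and it controls how strongly these genes and Cd74 are transcribed. Mice with the C57BL6J background make no I-E alpha chain and therefore show I-A but no I-E on the cell surface. In macrophages the pathway is known as inducible by interferon gamma.

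RefSeq promoters of GRCm38.p6 run from 250 bases before to 50 bases after the start of a gene. They were examined for 2 of the 5 genes. Both are printed because their X and Y boxes are the sites through which CIITA acts on the 2 genes. Promoters of the other named genes were not examined, so whether they hold such letters was not tested. Capitals mark the letters GCAAC, a core of the X box, and CTGATTGG, which spans the Y box. H2-Aa lies at chr17:34287774-34288073 on the minus strand and H2-Eb1 at chr17:34305617-34305916 on the plus strand of GRCm38.p6, and both are given 5′ to 3′ along the gene.
H2-Aa: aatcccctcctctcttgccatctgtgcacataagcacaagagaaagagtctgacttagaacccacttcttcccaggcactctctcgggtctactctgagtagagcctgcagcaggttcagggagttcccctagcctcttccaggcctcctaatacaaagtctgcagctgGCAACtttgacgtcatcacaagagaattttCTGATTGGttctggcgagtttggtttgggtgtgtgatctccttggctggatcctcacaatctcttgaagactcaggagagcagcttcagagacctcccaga
H2-Eb1: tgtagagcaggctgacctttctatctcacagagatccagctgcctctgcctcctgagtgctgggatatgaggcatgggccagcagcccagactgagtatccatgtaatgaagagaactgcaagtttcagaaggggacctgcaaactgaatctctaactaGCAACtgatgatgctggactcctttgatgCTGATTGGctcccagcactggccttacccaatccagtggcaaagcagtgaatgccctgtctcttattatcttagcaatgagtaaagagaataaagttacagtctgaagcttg
The Y box letters start 51 bases before the start of H2-Aa and 62 bases before that of H2-Eb1. The gap between the 2 stretches of capitals is 25 bases in H2-Aa and 24 in H2-Eb1. Of all 32851 RefSeq promoters, 19.3% hold GCAAC and 1.99% hold CTGATTGG on the strand of the gene, and on either strand 35.2% and 4.1% do. GCAAC followed 20 to 30 bases later by CTGATTGG occurs in 10 promoters on the strand of the gene (0.0304%) and in 22 on either strand (0.067%). Of 6 further class II genes in the table, H2-Oa and H2-Eb2 hold the pair, and H2-DMa, H2-DMb1, H2-DMb2 and H2-Ob do not. These matches describe letters only. The promoters are of GRCm38 and the peaks of GRCm39, so no peak was assigned to the start of a gene. On chromosome 17 the genes follow each other in the order H2-Ab1, H2-Aa, H2-Eb1 with rising coordinate, and places along the windows are given below as kb from the start of the window.

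The strength of a peak is given as its percentile, the share of its own list with a summed coverage at or below that of the peak, because sums are not comparable between libraries. Lists held 12060 to 35971 peaks. Read depth is unknown, so no interval from it is given, and a missing peak means only that the signal did not reach the list. One list stood apart. H3K27ac 4 dpi replicate 1 covered 205 Mb, against 37.8 to 65.3 Mb in the other 3 H3K27ac lists, and it alone of its mark carries another code prefix in its description. What the prefix stands for is not given, and its part in the results was not tested. Results that rest on it are therefore given with and without it. Among the H3K18la lists, 2 dpi replicate 1 was the longest with 27578 peaks, against 15190 to 17578 in the other 3. The H3K27me3 lists differed by day, with 14791 and 14836 peaks over 79.8 and 80.9 Mb at 4 dpi. At 2 dpi they held 12225 and 12060 peaks over 52.1 and 61.0 Mb. The part of this difference in the H3K27me3 results was not tested.

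Across the 3 windows, some regions were gained at 4 dpi. Gained means called in both 4 dpi libraries and in neither 2 dpi library, lost the reverse. Of the 36 regions 8 were gained, 0 lost and 10 called in all 4 libraries of their mark. Of the other 18, 6 were called in both 4 dpi libraries and 1 2 dpi library, 8 in 1 4 dpi library alone, 2 in 1 2 dpi library alone and 2 in 1 library of each day. Where called, these 18 regions stood at percentiles of 5.64 to 93.8 at 4 dpi and 13.8 to 61.8 at 2 dpi. The gained regions were 2 of 14 for H3K18la, 2 of 7 for H3K4me3, 3 of 10 for H3K27ac and 1 of 5 for H3K27me3. Over the whole genome 1.53% of H3K18la, 5.28% of H3K4me3, 5.83% of H3K27ac and 10.4% of H3K27me3 regions were gained. Of the regions of the same marks 4.37%, 1.29%, 0.704% and 0.877% were lost. With losses this rare, 0 lost of 36 regions does not set these windows apart, and neither does 1 gained of 5 for H3K27me3. Without 2 dpi replicate 1, the longest list of its mark, the count of gained H3K18la regions was 6. For H3K27ac it was 12 without the broad 4 dpi replicate 1, whose wide peaks join several places, 6 without 4 dpi replicate 2 and 5 without 2 dpi replicate 1. It was 4 for H3K4me3 without 4 dpi replicate 2 and 3 for H3K27me3 without 4 dpi replicate 1. Leaving out a library loosens the definition of gained, since 1 list then stands for a day. Shares over all regions are not given for these settings, so these counts are not read as a result about the windows.

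**Figure D1:**
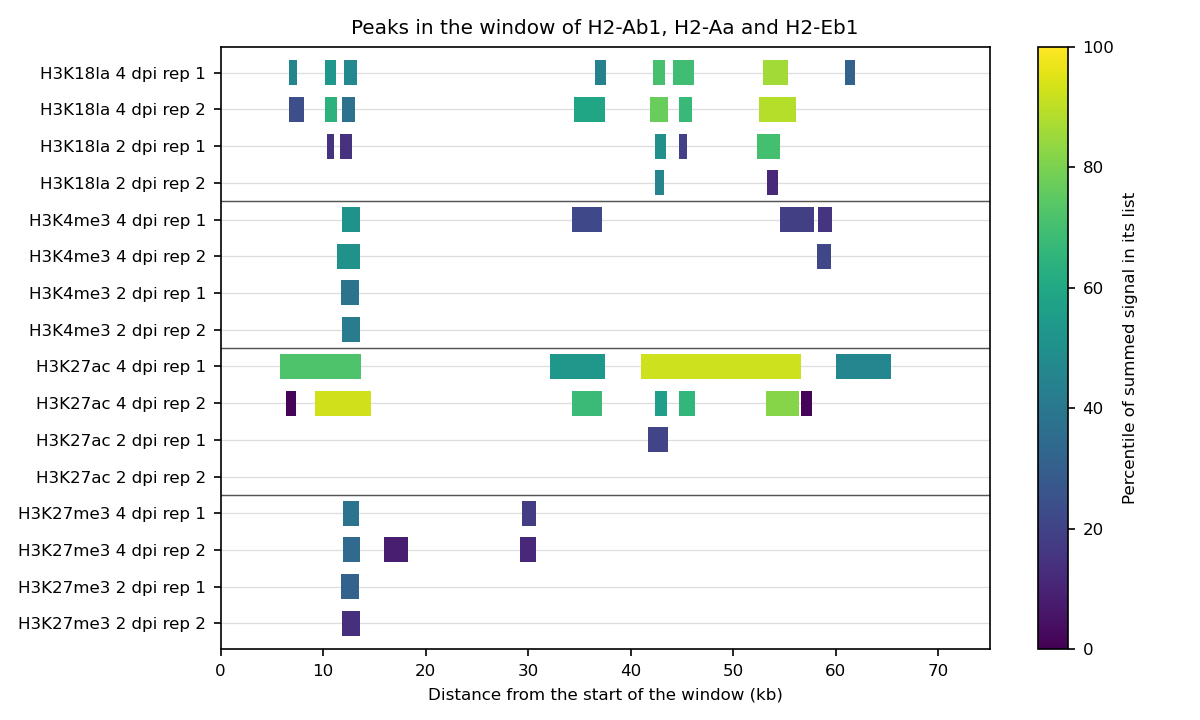
Peaks of the 16 libraries (rows, 4 dpi above 2 dpi within each mark) along the window of H2-Ab1, H2-Aa and H2-Eb1, in kb from its start. Colour gives the percentile of a peak in its own list. H3K18la peaks numbered 8 and 7 at 4 dpi, against 5 and 2 at 2 dpi, and H3K4me3 and H3K27me3 share 1 place about 12 kb along in all 8 of their libraries.

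The window of the peptide-binding chains H2-Ab1, H2-Aa and H2-Eb1 carried more H3K18la at 4 dpi than at 2 dpi. Called H3K18la length was 11.02 and 13.6 kb at 4 dpi, against 5.87 and 1.97 kb at 2 dpi, which gave 12.3 ± 1.81 kb and 3.92 ± 2.76 kb (SD, n = 2 each). The time points did not overlap. In 6.7% of tiles of the same width the called H3K18la length was likewise above both 2 dpi libraries in both 4 dpi libraries.

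To test the whole window against the genome, the summed signal of the window was ranked within each library among tiles of its width that had a peak in all 4 libraries, and these ranks were converted to normal scores. The shift is the difference in score, 4 minus 2 dpi, tested by limma with Benjamini-Hochberg adjustment over all tiles. The window stood at percentiles 90.9 and 88.6 of the tiles at 4 dpi, against 40.5 and 32.2 at 2 dpi. The H3K18la shift was 1.62 (SE 0.18, adjusted p = 0.0107 by limma), the 10th largest of 5505 features, of which 0.109% rose. The call was lost without 4 dpi replicate 1 (adjusted p = 0.224), without 2 dpi replicate 2 (adjusted p = 0.241) and with maximum in place of summed coverage (adjusted p = 0.124). It was also lost, at a shift of 1.21 (adjusted p = 0.0870), in a fit chosen after seeing the data that took every tile with a peak in 1 library or more. With lists cut to equal length it stood at a shift of 1.85 (adjusted p = 0.00607). The tile just before the window had an H3K18la shift of -0.31 (adjusted p = 0.798) and the tile just after it one of 0.56 (adjusted p = 0.321), and differences between neighbouring tiles were not tested.

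The strongest H3K18la peaks of this window lay in its second part. At 52.3 to 56.1 kb (chr17:34522324-34526137) the percentile was 86.2 and 88.9 at 4 dpi, against 70.1 and 11.4 at 2 dpi. Both 4 dpi libraries stood above both 2 dpi libraries, which themselves lay far apart. By rank of summed signal 23.8% of H3K18la regions tested had this order. Tested region by region in the same way, the shift of the region was 1.90 (SE 0.42, adjusted p = 0.0941 by limma), the 18th largest of 9325. This shift did not pass the threshold of 0.05. Leaving out a 2 dpi library moved it most, to 2.44 without replicate 1 (adjusted p = 0.0188) and to 1.22 without replicate 2 (adjusted p = 0.425). Without 4 dpi replicate 1 the adjusted p was 0.266. With log2 of median-scaled signal it passed (adjusted p = 0.0312). The point of highest coverage was nearly the same in 3 of the 4 libraries, starting at position 34523902 in 4 dpi replicate 1 and at 34523888 and 34523904 in the 2 dpi libraries, but at 34524799 in 4 dpi replicate 2.

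At 41.8 to 43.6 kb (chr17:34511837-34513635) the H3K18la percentile was 70.4 and 77.3 at 4 dpi, against 49.7 and 45.1 at 2 dpi. The time points did not overlap. By rank, 23.8% of H3K18la regions tested had both 4 dpi libraries above both 2 dpi libraries. The shift of 1.14 (SE 0.43) gave an adjusted p of 0.256 by limma. A neighbouring region at 44.1 to 46.2 kb stood at percentiles 69.3 and 67.3 at 4 dpi, against 19.02 in 2 dpi replicate 1 and no call in replicate 2. Across the genome 0.0429% of H3K18la regions rose.

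Both gained H3K18la regions were in this window. At 6.65 to 8.11 kb (chr17:34476654-34478107) the 4 dpi percentiles were 45.4 and 23.8, and at 34.5 to 37.5 kb (chr17:34504453-34507540) they were 43.4 and 59.2. Neither was among the strong peaks of its list. Another pair of H3K18la regions, at 10.2 to 11.4 kb and 11.6 to 13.3 kb, was called in both 4 dpi libraries at percentiles between 37.8 and 64.4, against 14.6 and 14.2 in 2 dpi replicate 1 and no call in replicate 2.

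H3K27ac was nearly missing from the H2 window at 2 dpi. Called length was 34.4 and 16.2 kb at 4 dpi, against 2.02 and 0 kb at 2 dpi. Both 4 dpi libraries lay above both 2 dpi libraries, as they did in 36.2% of tiles of this width. The gained H3K27ac regions lay at 5.79 to 14.6 kb (chr17:34475786-34484627), with percentiles of 72.2 and 92.7 at 4 dpi, and at 32.1 to 37.5 kb (chr17:34502081-34507507), with 53.3 and 67.7. Another, at 41.0 to 57.7 kb, reached percentiles 92.4 and 82.0 at 4 dpi and was called at 2 dpi in replicate 1 alone, at 20.3.

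Since 2 dpi replicate 2 had no H3K27ac peak here, the test over tiles with a peak in all 4 libraries could not include the window. A fit that was not planned took every tile with a peak in 1 library or more and gave 0 to a library with none. In it the H3K27ac shift was 1.97 (SE 0.29, adjusted p = 7.58e-06 by limma), and 1.06% of tiles rose. Without the broad 4 dpi replicate 1 it was 2.49, with 1 library left at 4 dpi. Without 2 dpi replicate 2 it was 1.76 (adjusted p = 0.0741), and with lists of equal length 2.11 (adjusted p = 0.0782). Values of 0 are tied in this fit, so that its spread can be understated for tiles with several of them. Limma pools spread between tiles, so that the spread can be understated for this window too, and its p-values can be too small.

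H3K4me3 in the H2 window was called at 1 place in every library and at more places at 4 dpi. The shared region, at 11.4 to 13.6 kb (chr17:34481370-34483616), stood at percentiles 50.6 and 50.3 at 4 dpi, against 38.2 and 41.2 at 2 dpi. The time points did not overlap, an order that 30.5% of H3K4me3 regions tested had by rank. The shift of the shared region, 0.26 (SE 0.20, adjusted p = 0.384 by limma), missed the threshold, while 7.78% of H3K4me3 regions rose. A region at 58.1 to 59.6 kb (chr17:34528143-34529590) was gained, at percentiles 15.02 and 21.3. Called length was 9.35 and 3.58 kb at 4 dpi, against 1.83 and 1.75 kb at 2 dpi, an order that 35.2% of tiles shared.

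Over the whole window H3K4me3 rose, with a shift of 0.87 (SE 0.17, adjusted p = 0.00668 by limma), as did 10.3% of 8690 tiles. The window stood at percentiles 47.0 and 37.2 of tiles at 4 dpi, against 13.03 and 15.4 at 2 dpi. The call was lost without 4 dpi replicate 1 (adjusted p = 0.0925), with called length (adjusted p = 0.160) and with maximum coverage (adjusted p = 0.0593). The rise was not limited to the window. The 2 tiles before it had H3K4me3 shifts of 0.71 (adjusted p = 0.00232) for the nearer and 0.44 (adjusted p = 0.00592) for the farther one.

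H3K27me3 overlapped that same shared place. Its region at 11.7 to 13.6 kb (chr17:34481735-34483597) stood at percentiles 38.2 and 34.2 at 4 dpi, against 31.1 and 13.8 at 2 dpi, with a shift of 0.09 (SE 0.42, adjusted p = 0.932 by limma). Bases called for both H3K4me3 and H3K27me3 in both libraries of a day spanned 1.64 kb at 4 dpi and 1.65 kb at 2 dpi. Whether both marks sit on the same chromosomes or in different cells cannot be told apart. A further H3K27me3 region was gained at 29.2 to 30.7 kb (chr17:34499164-34500728), with low percentiles of 17.9 and 11.6.

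Called H3K27me3 length in the H2 window was 2.96 and 5.55 kb at 4 dpi, against 1.79 and 1.70 kb at 2 dpi, and 45.6% of tiles had the same order. The window shift of 0.71 (SE 0.32) gave an adjusted p of 0.259 by limma, where 1.96% of tiles rose. With lists cut to equal length this shift was 0.028 and no H3K27me3 region counted as gained.

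**Figure D2:**
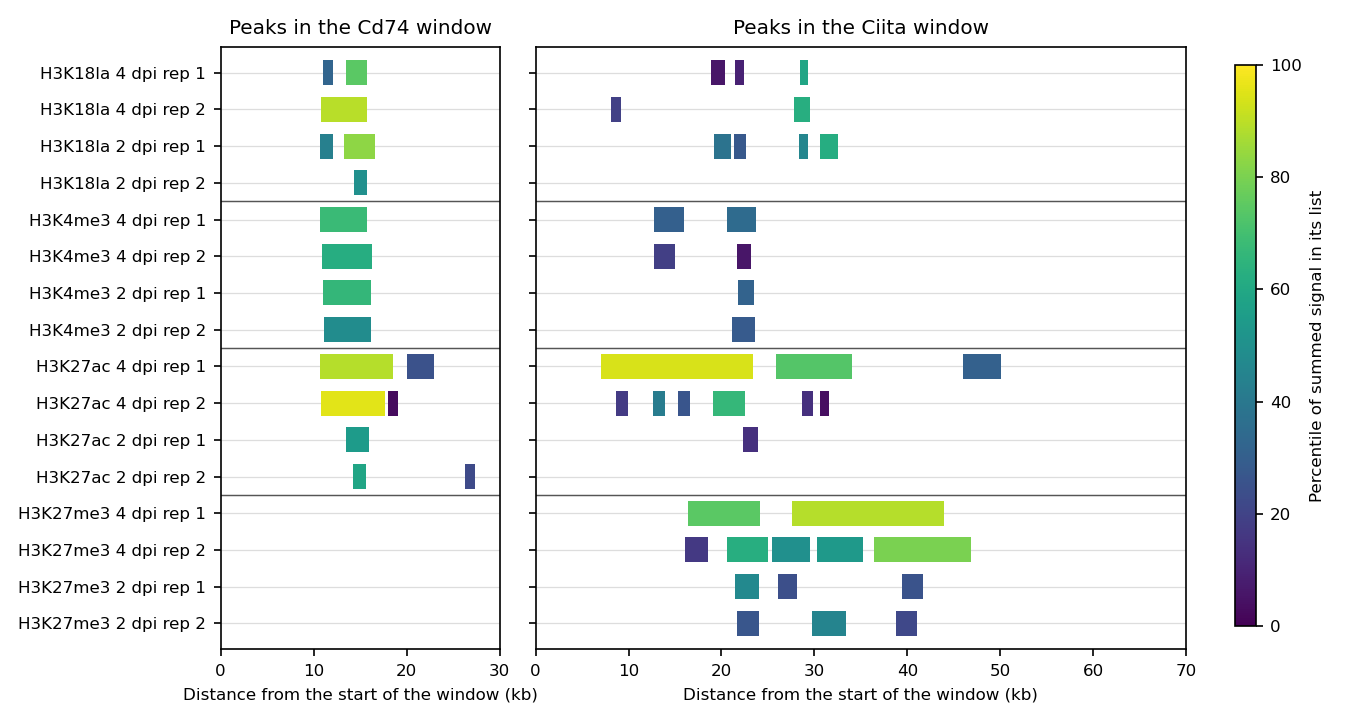
Peaks of the 16 libraries (rows, 4 dpi above 2 dpi within each mark) along the Cd74 and Ciita windows, in kb from the start of each window, coloured by percentile in the list. At Cd74 the active marks share 1 place and H3K27me3 has no peak. At Ciita the widest H3K27me3 peak spans 16.4 kb at 4 dpi and 3.61 kb at 2 dpi.

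Cd74, the invariant chain, had all 3 active marks at both time points and no H3K27me3 peak in any of 4 libraries. Over the genome 12853 tiles of this width had an H3K27me3 peak in 1 library or more, against 26236 for H3K27ac. Tiles without an H3K27me3 peak were not counted, so that its absence is not shown to be particular to Cd74. H3K4me3, H3K27ac and H3K18la were each called in all 4 libraries over 1 region that began 10.7 kb into the window. At 4 dpi all 3.41 kb called for H3K18la in both libraries was also called for H3K4me3 and H3K27ac. At 2 dpi 1.32 kb was called for H3K18la in both libraries, all of it shared with H3K4me3 and 1.26 kb with H3K27ac.

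At Cd74 the H3K18la region (chr18:60935728-60941573) stood at percentiles 32.1 and 74.5 for its 2 peaks in 4 dpi replicate 1 and 89.4 in replicate 2, against 43.2 and 83.2 for its 2 peaks in 2 dpi replicate 1 and 49.9 in replicate 2. By their strongest peak the time points overlapped. By signal summed over the region, as tested, they did not, with ranks at percentiles 73.7 and 79.03 of regions at 4 dpi, against 65.3 and 30.6 at 2 dpi. This order was that of 23.8% of H3K18la regions tested. The shift of the region was 0.78 (SE 0.32, adjusted p = 0.287 by limma) and that of the window 0.71 (SE 0.31, adjusted p = 0.305), and 0.0549% of tiles of this width rose. Without 2 dpi replicate 2 these shifts were 0.30 and 0.38, and without 2 dpi replicate 1 they were 1.23 and 0.99. Called length was 3.44 and 4.92 kb at 4 dpi, against 4.66 and 1.32 kb at 2 dpi.

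H3K4me3 at Cd74 (chr18:60935737-60941303) was near its 2 dpi level at 4 dpi. It was called over 5.05 and 5.42 kb at 4 dpi, against 5.11 and 5.04 kb at 2 dpi, at percentiles 67.9 and 62.5 against 66.2 and 48.3. The shift was 0.22 (SE 0.18, adjusted p = 0.415 by limma) for the region and 0.20 (SE 0.18, adjusted p = 0.494) for the window, where 7.18% of tiles rose.

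H3K27ac at Cd74 (chr18:60935725-60944060) was among the strongest peaks of the windows at 4 dpi, with percentiles 89.0 and 95.6 for its leading peak, against 54.4 and 58.7 at 2 dpi. Both 4 dpi libraries stood above both 2 dpi libraries, an order that 20.8% of H3K27ac regions tested had by rank. The shift of 1.56 (SE 0.35, adjusted p = 0.0766 by limma) missed the threshold, and 0.178% of H3K27ac regions rose. Without the broad 4 dpi replicate 1 the shift was 1.81 (adjusted p = 0.0202). It also passed when only the upper part of each list was used (adjusted p = 0.0479) and with log2 of median-scaled signal (adjusted p = 0.0456). It did not with maximum signal, where the shift was 0.49 (adjusted p = 0.817), with mean signal per called base (0.97, adjusted p = 0.723), with a constant prior variance (adjusted p = 0.396) or without 4 dpi replicate 2 (1.26, adjusted p = 0.127). Of 12 alternatives 4 passed.

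Called H3K27ac length in the Cd74 window was 10.7 and 7.91 kb at 4 dpi, against 2.408 and 2.397 kb at 2 dpi, an order seen in 31.4% of tiles. The window shift was 1.25 (SE 0.39, adjusted p = 0.191 by limma), where 0.0482% of tiles rose. It was 1.48 (adjusted p = 0.272) without the broad 4 dpi replicate 1 and 0.76 (adjusted p = 0.667) without 2 dpi replicate 1.

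At Ciita, the transactivator of the other genes, the summed signal of the repressive mark H3K27me3 ranked higher at 4 dpi than at 2 dpi. The called H3K27me3 length was 24.1 and 26.3 kb at 4 dpi, against 6.95 and 8.21 kb at 2 dpi, or 25.2 ± 1.51 kb and 7.58 ± 0.89 kb (SD, n = 2 each). The time points were well apart, though 45.3% of tiles of this width had the same order. The window stood at percentiles 76.7 and 79.7 of tiles at 4 dpi, against 40.6 and 41.3 at 2 dpi. Its shift was 1.01 (SE 0.13, adjusted p = 0.0176 by limma), and 2.58% of 5919 tiles rose. The call was lost with called length in place of signal, at a shift of 0.96 (adjusted p = 0.0811), and with maximum coverage, at 0.46 (adjusted p = 0.718).

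The larger of the Ciita H3K27me3 regions, at 25.5 to 46.9 kb (chr16:10310481-10331884), was the only one of the 10 tested member regions past the threshold, with a shift of 1.24 (SE 0.17, adjusted p = 0.0234 by limma). Its strongest peak stood at percentiles 88.7 and 80.0 at 4 dpi, against 25.6 and 45.2 at 2 dpi. It held 1 peak of 16.4 kb in 4 dpi replicate 1 and 3 peaks of 4.06 to 10.4 kb in replicate 2, against 2 peaks of 2.05 and 2.29 kb in 2 dpi replicate 1 and 2 of 3.61 and 2.21 kb in replicate 2. With the mean signal per called base in place of the sum the shift was 0.31 (adjusted p = 0.909), and with the maximum it was 0.94 (adjusted p = 0.669). Across the genome 0.892% of H3K27me3 regions rose.

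Neither Ciita call held without a 4 dpi library. The adjusted p of the window was 0.203 without 4 dpi replicate 1 and 0.405 without replicate 2, and that of the larger region was 0.141 and 0.165. The smaller H3K27me3 region at 16.1 to 25.0 kb (chr16:10301102-10310041) had percentiles of 74.3 and 62.9 at 4 dpi, against 47.0 and 26.9 at 2 dpi, and a shift of 0.97 (SE 0.27, adjusted p = 0.144 by limma), which was 0.59 without 4 dpi replicate 1. In all 4 libraries of the mark a peak covered the stretch from position 10306682 to 10309060. Where peaks up to 1000 bp apart were joined, both regions became one, with a shift of 1.10 (adjusted p = 0.0120).

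H3K4me3 at Ciita was called in all 4 libraries inside this H3K27me3 region, at 20.6 to 23.7 kb (chr16:10305590-10308721). Its percentiles were low, at 34.7 and 5.58 at 4 dpi, against 31.3 and 28.4 at 2 dpi, and the shift was -0.63 (SE 0.38, adjusted p = 0.266 by limma). By list percentile the 4 dpi libraries spread beyond both 2 dpi values. By signal summed over the region, as tested, both 4 dpi libraries ranked below both 2 dpi libraries. These ranks stood at percentiles 14.3 and 1.74 of regions at 4 dpi, against 17.97 and 16.07 at 2 dpi. This shift rested on 4 dpi replicate 2, without which it was -0.062, and it was -1.13 without 4 dpi replicate 1. H3K4me3 and H3K27me3 were both called in both libraries over 1.48 kb at 4 dpi and 1.75 kb at 2 dpi. A second H3K4me3 region at 12.7 to 16 kb (chr16:10297702-10300981) was gained, at percentiles 30.3 and 18.4.

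Called H3K4me3 length at Ciita was 6.41 and 3.77 kb at 4 dpi, against 1.75 and 2.44 kb at 2 dpi, in an order that 34.5% of tiles had. The window shift was 0.42 (SE 0.21, adjusted p = 0.175 by limma), where 9.9% of tiles rose.

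H3K27ac at Ciita was called over 28.6 and 9.50 kb at 4 dpi, against 1.59 and 0 kb at 2 dpi. The order was that of 36% of tiles. One region, at 25.9 to 34 kb (chr16:10310854-10319004), was gained at percentiles 73.3 and 14.0, so that it was strong in the broad list alone. A wider region at 7.06 to 23.9 kb stood at 93.8 and 66.8 at 4 dpi, against 13.8 in 2 dpi replicate 1 and no call in replicate 2. The unplanned fit that gives 0 to a missing peak was used here too, and its spread can be understated as in the H2 window. In it the H3K27ac shift was 1.54 (SE 0.33, adjusted p = 0.00164 by limma), where 1.89% of tiles rose. Without the broad list it was 1.65, with 1 library left at 4 dpi. Without 2 dpi replicate 2 it was 1.34 (adjusted p = 0.711) and without 2 dpi replicate 1 it was 1.74 (adjusted p = 0.0984).

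H3K18la at Ciita was sparse. It was called over 3.45 and 2.90 kb at 4 dpi, against 6.06 and 0 kb at 2 dpi, and the time points overlapped. No H3K18la region of this window was called in all 4 libraries. The one at 27.8 to 29.5 kb was called in 3, at percentiles 58.8 and 62.6 at 4 dpi and 45.8 in 2 dpi replicate 1. In the unplanned fit with 0 for a missing peak the window shift was 0.75 (SE 0.41, adjusted p = 0.506 by limma). It lay between 0.12 without 2 dpi replicate 2 and 1.47 without 2 dpi replicate 1. In that fit limma called 0% of 10828 tiles as higher at 4 dpi, while 1245 tiles had an unadjusted p under 0.05 in either direction. Limma with a peak required in all 4 libraries, a fit that leaves Ciita out, called 5 tiles as higher at 4 dpi.

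**Figure D3:**
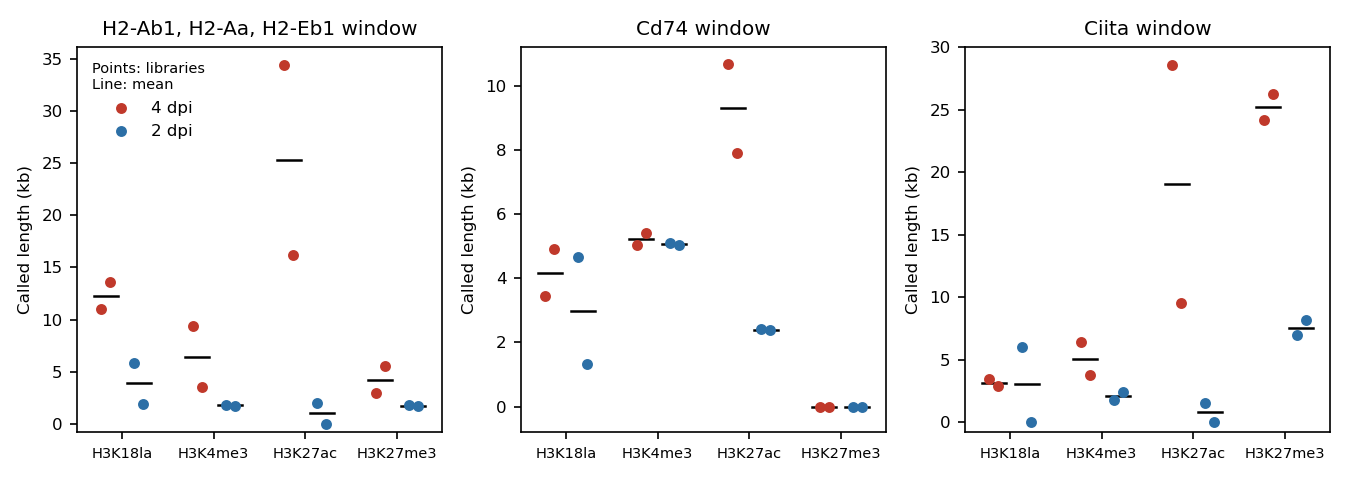
Called length in kb per library (points) in the 3 windows, with the mean of the 2 libraries of each day (line), 4 dpi left of 2 dpi. H3K18la separates by day in the H2 window alone (11.02 and 13.6 kb against 5.87 and 1.97 kb), H3K27ac separates in all 3, and H3K27me3 is at 0 kb at Cd74.

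**Figure D4:**
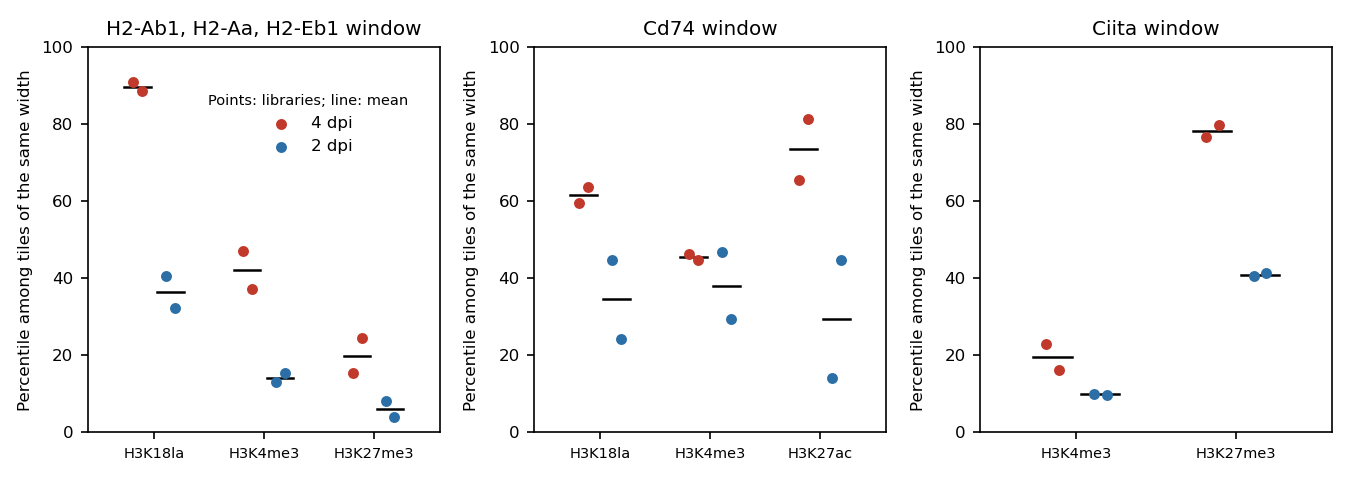
Percentile of the summed signal of each window among tiles of its width, per library (points) with the mean of each day (line), 4 dpi left of 2 dpi. Marks are shown where all 4 libraries had a peak in the window. The H2 window stands at 90.9 and 88.6 for H3K18la at 4 dpi, against 40.5 and 32.2 at 2 dpi.

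Set side by side, the tested member regions mostly lay on the 4 dpi side. Of 10 regions, 9 had a shift above 0, and the median shift was 0.87, against medians of all regions tested of 0.00 for H3K18la, 0.01 for H3K4me3, -0.07 for H3K27ac and -0.03 for H3K27me3. Both 4 dpi libraries ranked above both 2 dpi libraries in 3 of 3 H3K18la, 1 of 3 H3K4me3, 1 of 1 H3K27ac and 2 of 3 H3K27me3 regions, against 23.8%, 30.5%, 20.8% and 20.6% of all regions tested of the same marks. Limma called 0 of 3 H3K18la, 0 of 3 H3K4me3, 0 of 1 H3K27ac and 1 of 3 H3K27me3 regions. At an unadjusted p under 0.05 the counts were 3, 0, 1 and 2, where 14.8%, 32.7%, 14% and 15.3% of all regions of these marks had such a p in either direction. With log2 of median-scaled signal limma called 1 H3K18la, 0 H3K4me3, 1 H3K27ac and 1 H3K27me3 region. The share of all regions called on that scale is not given, so these counts are not set against the genome. The regions of a window are neighbours and are no independent replicates of each other.

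**Figure D5:**
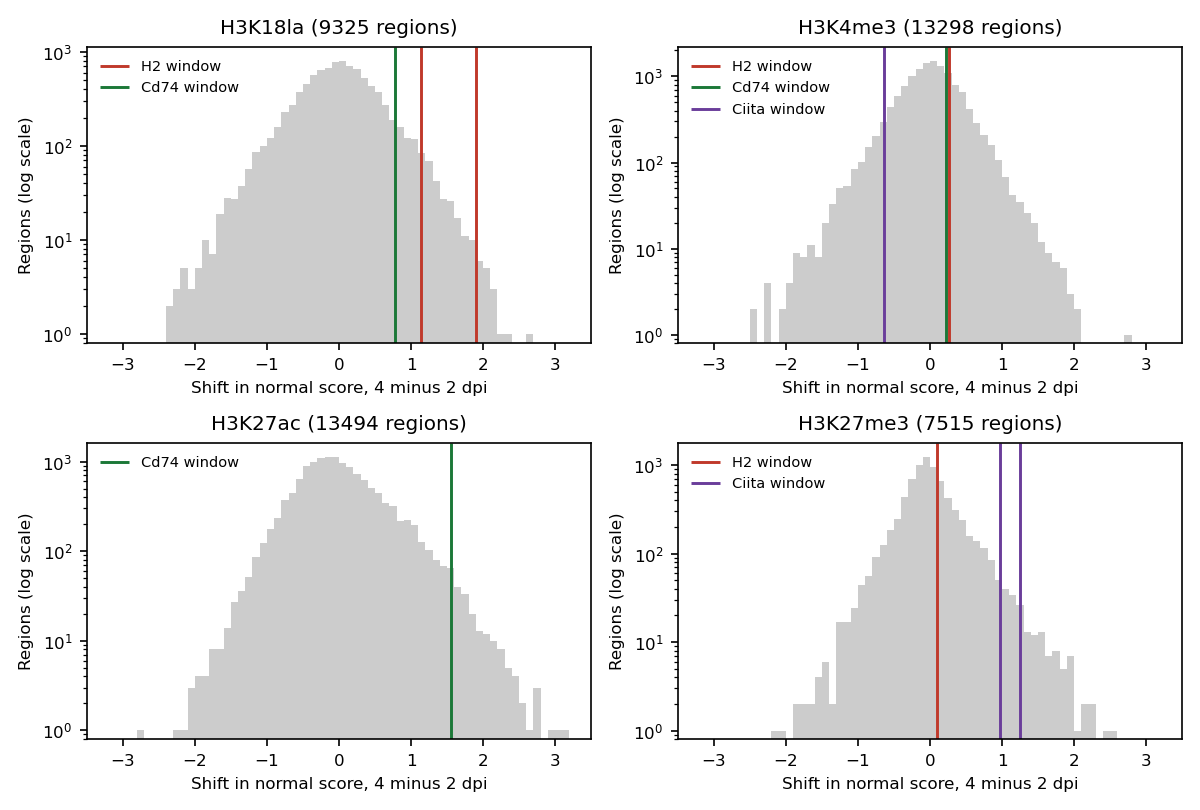
Shifts in normal score, 4 minus 2 dpi, of all regions called in all 4 libraries of a mark (grey, log scale), with the member regions as vertical lines coloured by window. The H3K18la region of the H2 window at 1.90 is the 18th largest of 9325, while the H3K4me3 lines of the H2 and Cd74 windows, at 0.26 and 0.22, lie in the bulk.

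To place H3K18la next to the other active marks, ranks within a library were compared over tiles with a peak in all 8 libraries of both marks, with time point as a covariate. In the H2 window H3K18la stood at percentiles 89.3 and 86.8 at 4 dpi and 37.2 and 30.2 at 2 dpi, against 33.4 and 26.0 at 4 dpi and 8.34 and 8.51 at 2 dpi for H3K4me3. H3K18la was higher than H3K4me3 in each time point, by 1.33 in normal score (SE 0.18, adjusted p = 3.08e-05 by limma). The paper states that the marks were made from the same samples, but this fit treats all 8 libraries as independent. With a block for each day and replicate number the difference stayed at 1.33 (adjusted p = 7.19e-05 by limma). Such a difference was common, since H3K18la was higher in 36.3% of these 4197 tiles. A comparison with H3K27ac could not be made in this window, for lack of a peak in 2 dpi replicate 2.

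In the Cd74 window the difference between H3K18la and H3K4me3 was 0.38 (SE 0.19, adjusted p = 0.0939 by limma) and that between H3K18la and H3K27ac 0.27 (SE 0.28, adjusted p = 0.461), while H3K18la was higher in 34.2% and 20.3% of the tiles of these contrasts. Without H3K18la 2 dpi replicate 2 the difference from H3K4me3 was 0.65 (adjusted p = 0.00657). Without the broad H3K27ac list the difference from H3K27ac was 0.20 (adjusted p = 0.592). H3K18la stood there at percentiles 55.5 and 59.4 at 4 dpi and 39.8 and 20.2 at 2 dpi, against 44.0 and 65.7 at 4 dpi and 6.43 and 29.6 at 2 dpi for H3K27ac. The values of both marks overlapped within each time point.

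The window edges cut through no peak. In the H2 window the outermost member began 5.79 kb inside the lower edge and the nearest peak outside ended 5.03 kb before it, and at the upper edge the distances were 9.59 kb inside and 14.9 kb outside. At Cd74 peaks lay 0.24 and 0.308 kb outside the edges, an H3K18la peak at percentile 58.9 and an H3K27ac peak at percentile 24.6, both at 4 dpi. At Ciita an H3K27ac peak of the broad list lay 0.901 kb outside the upper edge, at percentile 12.0.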

How the data were processed

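CUT&Tag libraries of 4 hPTMs at 2 and 4 dpi were used, 2 per mark and day, grouped by the labels. The submitters' processing notes name Trim Galore 0.6.6 for trimming, Bowtie2 2.4.4 for alignment, SAMtools 1.13 and bedtools 2.30 for file handling, and SEACR 1.3 as peak caller, run on each library. The signal deposited by the authors is the sum and the maximum of fragment coverage over each peak, with no normalization between libraries, so that ranks within a list were compared, except in the alternative on a log2 scale. List length moves with depth and background, and read depth is not given, so the precision it gives is unknown. Coordinates were taken as GRCm39, which the labels name. The methods of the study name mm10 for the alignment. For H3K27me3 at 4 dpi list names and labels swap the replicate numbers, and those of the labels are used.

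Peaks on chromosomes 1 to 19, X and Y were used (481 others left out), and peaks of a mark that overlapped by 1 bp or more were merged into regions. Regions called in all 4 libraries, and tiles of the width of a window, were tested with limma 3.58.1 under R 4.3.3 (trended, robust variance, two-sided, adjusted p under 0.05). Limma was first tried on simulated data whose planted changes were large against their noise. That trial does not show how it performs on smaller changes. An exact permutation test of 2 against 2 libraries cannot go below p = 0.333. Regions named in full are those called in all 4 libraries with the highest mean percentile (up to 2 per window and mark), those past the threshold, and those gained or lost. Others named were chosen after their values were seen. The genes, windows and lists were chosen with earlier results of these data known. Alternatives were another signal measure, shorter lists, wider merging, another scale or variance model, a replicate block and leaving out each library. Gene positions were available for GRCm38 only and were not lifted to GRCm39. The planned look at promoters of further pathway genes and of cell type markers, and its alternative, was not run. Numbers were computed with Python 3.11.15 and pandas 2.3.3.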

Additional observations from a re-analysis of the deposited data

How the results depend on the processing

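Of the alternative shifts, 109 of 133 for windows and contrasts of marks and 95 of 111 for single regions kept their direction and their side of the threshold. Of the alternative counts of regions, 51 of 76 were within 1.5 times the main count. With maximum signal the calls of the H2 window were lost for H3K18la (shift 1.65) and H3K4me3 (1.12), of the Ciita window for H3K27me3 (0.46) and H3K27ac (1.10, with 0 for no peak). With called length they were lost for H3K4me3 at H2 (1.46) and H3K27me3 at Ciita (0.96), and the Cd74 shift turned to -0.20 for H3K4me3 and the H3K18la minus H3K4me3 difference there to -0.53. With lists of equal length the H3K27ac shifts of 2.11 (H2) and 1.78 (Ciita) no longer passed, gained regions numbered 5 for H3K18la and 0 for H3K27me3, and the H3K27me3 region of the H2 window turned to -0.016. With only the peaks above the median of each list the Ciita H3K27ac shift was 1.27 and no longer passed, gained regions numbered 4 for H3K18la, 1 for H3K4me3 and 2 for H3K27me3, and 1 H3K27ac member region was called. No H3K27me3 member region was left to test there, so that its count of 0 says nothing. In 7 of the 8 windows tested with a peak in all 4 libraries this setting left no peak in some library and could not be fitted. With log2 of median-scaled signal 1 H3K18la and 1 H3K27ac region were called. Shares of all regions called or gained under these alternative settings are not given. The H3K27me3 region at Ciita was lost (0 called) with maximum signal, mean signal per called base and constant prior variance. Chosen after seeing the data, tiles with a peak in 1 library or more gave shifts of 1.21 for H3K18la at H2 (adjusted p = 0.0870) and 0.79 for H3K27me3 at Ciita (adjusted p = 0.0635), so that both calls were lost. In each case the cause was not tested.

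Leaving out each library in turn, with the lone library of a day assumed to vary like the others, gave shift ranges of 1.42 to 1.73 (H3K18la at H2), 0.74 to 0.96 (H3K4me3 at H2), 0.94 to 1.05 (H3K27me3 at Ciita), -0.032 to 0.41 (H3K4me3 at Cd74), 1.75 to 2.49 (H3K27ac at H2), 1.34 to 1.74 (H3K27ac at Ciita), 0.12 to 1.47 (H3K18la at Ciita), 0.47 to 0.88 (H3K27me3 at H2), 0.030 to 0.41 (H3K18la minus H3K27ac at Cd74) and 0.24 to 0.65 (H3K18la minus H3K4me3 at Cd74). The single regions ranged from -0.022 (without 2 dpi replicate 2) to 0.44 for H3K4me3 at Cd74 and from -0.21 (without 2 dpi replicate 2) to 0.30 for H3K27me3 at H2. Called regions ranged over 0 to 1 (H3K18la), 0 to 2 (H3K27ac, 2 without 2 dpi replicate 2) and 0 to 1 (H3K27me3), and gained regions over 2 to 6 (H3K18la), 2 to 4 (H3K4me3), 3 to 12 (H3K27ac) and 1 to 3 (H3K27me3). Shares over all regions are not given for these settings.

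Replicate numbers do not pair mice across days. Deviations of same-numbered libraries correlated across regions at -0.06 for H3K18la, 0.00 for H3K4me3, 0.09 for H3K27ac and -0.05 for H3K27me3. With a replicate block the H3K18la shift of the H2 window stayed at 1.62 but lost its call (adjusted p = 0.157), 1 H3K18la region (adjusted p = 0.00387) and 1 H3K27ac region (adjusted p = 0.00247) were called, and no other call changed. Over all regions the block raised H3K18la calls to 86 higher and 132 lower at 4 dpi, against 4 and 7 without it, those of H3K27ac to 447 and 134, against 24 and 1, and those of H3K27me3 to 187 and 21, against 67 and 4.

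The planned promoter windows were not run, since gene positions on GRCm39 were not used here. Unknown depth limits every statement on missing peaks.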
